A study of Mus musculus with 28 samples.

Results

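The Zbtb genes encode transcription factors that carry a BTB domain at the amino terminus and zinc fingers at the carboxyl terminus. They were taken as every protein-coding row whose gene symbol was Zbtb followed by a number and at most 1 letter in both tables, which gave 40 genes of 55487 (21936 protein-coding). They were followed across 14 groups of splenic dendritic cells, sort-purified from C57BL/6 mice and measured by bulk RNA sequencing, in 2 experiments with 2 biological replicates a group and 28 libraries in all. The cells were hybrid DC, conventional dendritic cells of type 1 (cDC1) and of type 2 (cDC2). H/H mice carry the altered Irf8 enhancer allele +32H on both chromosomes (Irf8 +32H/H), H/+ mice carry it on 1 of them (Irf8 +32H/+), and WT mice carry none.

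Experiment 1 held 16 libraries in 8 groups: hybrid cells of H/H and H/+ mice, cDC1 of H/H, H/+ and WT mice, and cDC2 of H/H, H/+ and WT mice. Experiment 2 held 12 libraries in 6 groups and no cDC2: hybrid cells of H/H Nfil3-/-, H/H Zeb2 -165d123 and H/H mice, and cDC1 of H/H Nfil3-/-, H/H and WT mice. H/H Nfil3-/- mice lack Nfil3, a basic leucine zipper factor, and H/H Zeb2 -165d123 mice carry an altered Zeb2 enhancer at -165 kb, so every Nfil3-/- and Zeb2-altered group also carried both +32H alleles. The labels give neither the sort gates, nor ages or sexes, nor whether cells of several mice were pooled. The submitters call the duplicates biological, and p-values measure the spread between these libraries.

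The BTB domain lets these factors pair with each other and recruit corepressor complexes or the ubiquitin ligase scaffold Cul3, and the zinc fingers bind DNA, so most of them are known as repressors. Several direct decisions between blood lineages in mice: Zbtb7b (ThPOK) directs T cells to the CD4 fate, Zbtb16 (PLZF) is required by natural killer T cells, and Zbtb7a (LRF) acts in B cell and erythroid development. Zbtb46 (zDC) is expressed by conventional dendritic cells and their committed progenitors and not by plasmacytoid dendritic cells or monocytes, which has made it the standard marker of the conventional lineage in mice. Irf8 is required by cDC1, and Zeb2 opposes the cDC1 fate.

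Library totals ranged from 23.39 to 38.17 M counts in experiment 1 (median 28.67 M) and from 17.54 to 22.71 M in experiment 2 (median 19.17 M). The labelled cell types carried their markers: all 12 cDC1 markers tested were higher and all 12 cDC2 markers lower in WT cDC1 than in WT cDC2. The altered genes matched the labels. Irf8 averaged 834.1 ± 4.25 CPM (counts scaled to library size) in H/H cDC1 and 2268 ± 438 CPM in WT cDC1 of experiment 1 (SD, n = 2 each), Nfil3 3.22 ± 0.653 CPM in H/H Nfil3-/- cDC1 and 36.3 ± 0.866 CPM in H/H cDC1, and Zeb2 14.9 ± 6.54 CPM in Zeb2 -165d123 hybrid cells and 42.7 ± 5.88 CPM in H/H hybrid cells. In experiment 1 every replicate 1 had at most 1 Xist count and every replicate 2 had 3674 or more. In experiment 2 Xist passed 100 counts in 3 of 12 libraries. These were replicate 2 of H/H Nfil3-/- cDC1, H/H Nfil3-/- hybrid and H/H Zeb2 -165d123 hybrid cells. All H/H and WT libraries of experiment 2 stayed below that count. Contrasts of Nfil3-/- or Zeb2 -165d123 cells with H/H cells therefore also set groups with different Xist against each other. Counts of genes on the Y chromosome went the other way in both experiments. They were 3 or fewer where Xist passed 100 counts and 2614 or more elsewhere. With a term for libraries with Xist in the fit, every gene named below kept its call or lack of one.

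In experiment 1, 37 of the 40 genes had enough counts to be tested, and in experiment 2, 35. Zbtb7c, Zbtb8b and Zbtb12 reached at most 4, 2 and 10 counts in any library and were tested in neither experiment. Zbtb16 and Zbtb32, with at most 4 and 11 counts, were not tested in experiment 2. The median over the 40 genes of the mean CPM was 6.22 in experiment 1 and 6.925 in experiment 2, so most were expressed at a low level. Per exon length, the highest levels in experiment 1 were those of Zbtb38, a factor that binds methylated DNA (6.67 CPM per kb of exon), Zbtb8a (5.96), the Myc partner Zbtb17, also called Miz1 (5.93), the telomere-binding factor Zbtb48 (3.87), Zbtb24 (3.77), which in humans is mutated in an immunodeficiency with lost DNA methylation, and Zbtb46 (3.32). In experiment 2 the order by the same length-scaled level was Zbtb46 (7.90), Zbtb17 (5.38), Zbtb8a (4.84), Zbtb38 (4.60), Zbtb7a (4.51) and Zbtb21 (3.89). For most of the genes tested the groups lay close together. The group mean CPM of the highest group was under 2 times that of the lowest in 28 of 37 genes of experiment 1 and in 31 of 35 genes of experiment 2, with a median ratio of 1.56 and 1.47.

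**Figure D1:**
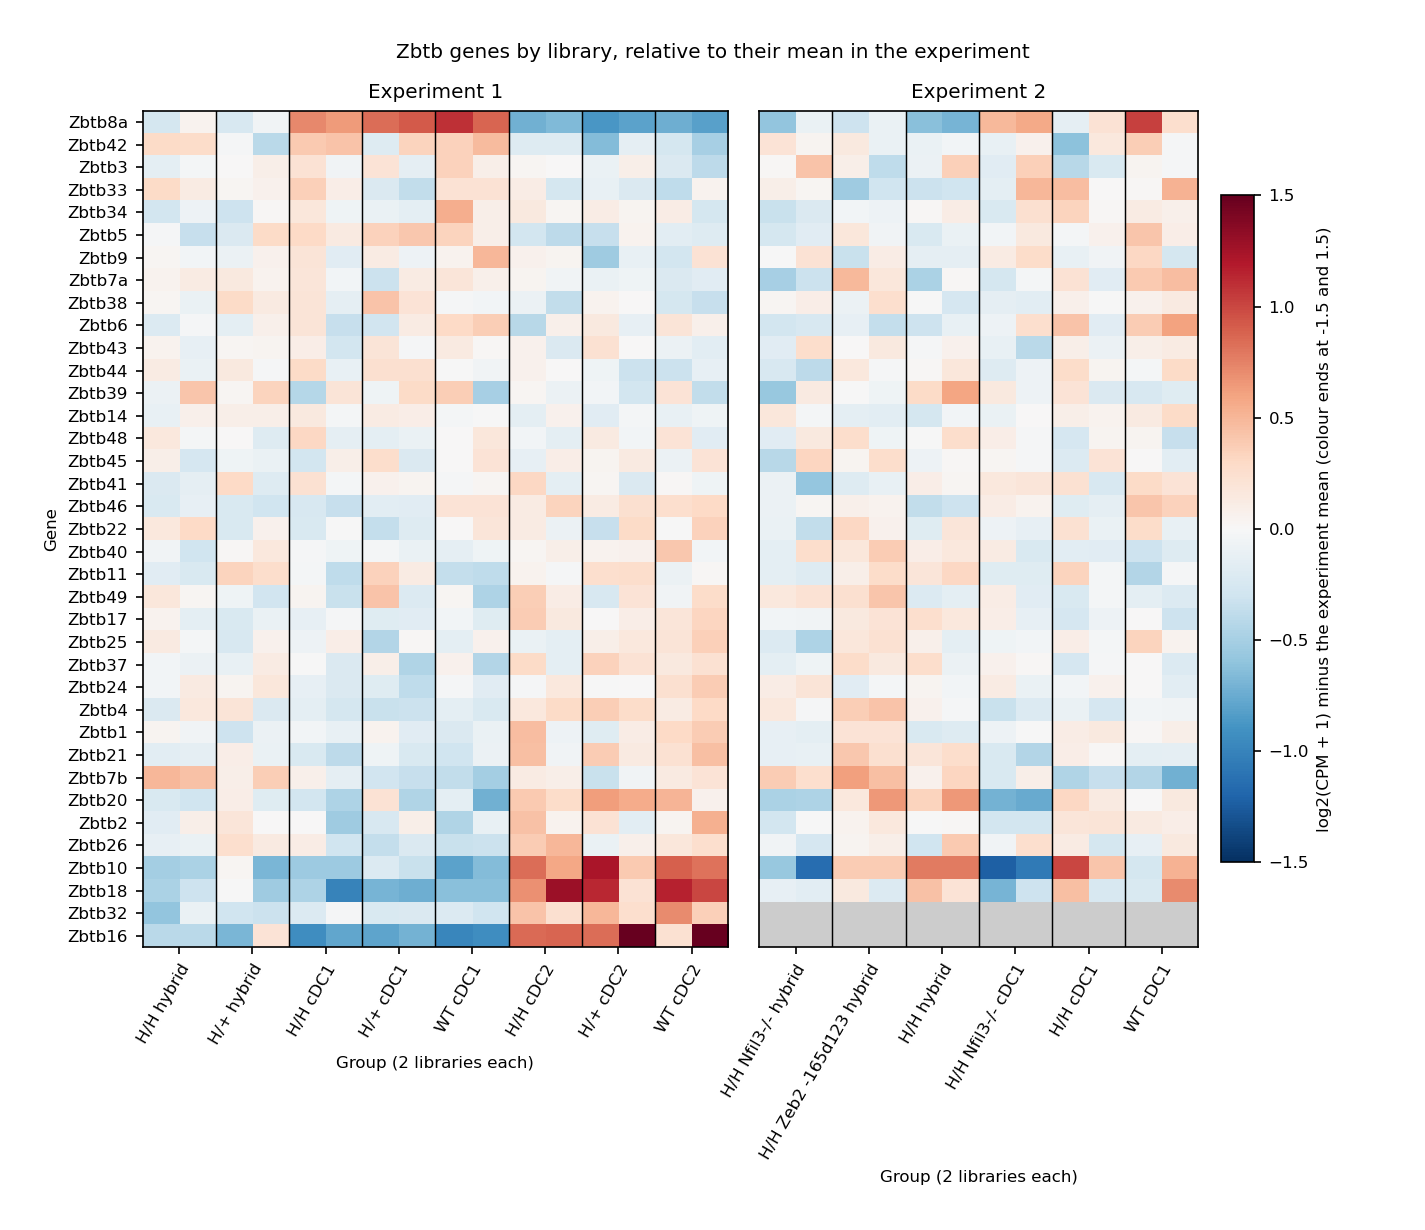
Each row is a Zbtb gene tested in experiment 1 and each column a library, 2 per group; colour is log2(CPM + 1) minus the gene's mean over the libraries of that experiment, and grey marks genes not tested in experiment 2. The top row, Zbtb8a, is red in the 6 cDC1 libraries of experiment 1 and blue in the 6 cDC2 libraries, the rows of Zbtb10, Zbtb18 and Zbtb16 are the reverse, and Zbtb10 and Zbtb20 are blue in the 4 Nfil3-/- libraries of experiment 2.

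The test for any difference among the groups (edgeR's quasi-likelihood F test with Benjamini-Hochberg adjustment over all genes) called 17 of the 37 genes in experiment 1, where 48.3% of all genes tested were called. In experiment 2 it called 10 of 35, where 41% of all genes were called. The smallest adjusted p in experiment 1 belonged to Zbtb8a (1.16e-08), Zbtb10 (4.54e-05), Zbtb18 (6.91e-05), Zbtb46 (2.70e-04), Zbtb16 (2.99e-04) and Zbtb7b (6.38e-04). In experiment 2 it belonged to Zbtb20 (6.36e-05), Zbtb10 (1.07e-04), Zbtb7b (2.82e-04), Zbtb8a (0.00118) and Zbtb46 (0.00135). Zbtb46, Zbtb10, Zbtb8a, Zbtb7b, Zbtb20, Zbtb21, Zbtb11 and Zbtb4 passed in both experiments. DESeq2 did not call Zbtb4 in experiment 2 (adjusted p = 0.0745).

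Sequence before a RefSeq start is shown for Zbtb8a, Zbtb7b and Zbtb18, 3 of the genes that separated cDC1, cDC2 or hybrid cells below (build GRCm38.p6). Others that did so are not shown. Among them is Zbtb20, also lower in Nfil3-/- cells, whose window held none of the motifs searched. The windows of 250 bases before each RefSeq start were searched on both strands for 4 motifs. The first was GAAA repeated after 2 bases of any kind, an element bound by interferon regulatory factors. The second was GGAA and GAAA 2 bases apart, a composite of an ETS and an IRF site. The others were CACCTG, the E-box bound by Zeb factors, and TTANNTAA, with N any base. TTANNTAA holds the outer letters of an NFIL3 site and leaves its 2 centre bases free. A match to it need not be such a site, and the label NFIL3 site below names the pattern only. These 4 motifs occur in 2.98%, 2.3%, 17.2% and 5.43% of all 32851 windows. Among the 35 Zbtb genes with a window, the GAAA repeat was found for Zbtb18 alone, the ETS-IRF composite for Zbtb11 and Zbtb7b, CACCTG for Zbtb38, Zbtb46, Zbtb49, Zbtb7b and Zbtb8b, and TTANNTAA for Zbtb18 and Zbtb38. Capitals mark the match, which for the GAAA repeat of Zbtb18 is on the other strand, and the 162 bases of Zbtb8a before its most upstream annotated start hold none. No base lay in matches of 2 motifs in the lines shown. A match describes letters and does not show binding.
Zbtb8a, chr4:129378117-129378278, minus strand: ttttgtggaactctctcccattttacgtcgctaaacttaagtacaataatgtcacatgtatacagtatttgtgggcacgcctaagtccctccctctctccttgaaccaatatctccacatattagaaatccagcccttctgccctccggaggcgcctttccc
Zbtb7b, ETS-IRF composite, chr3:89393569-89393598, minus strand: aggaaagaagGGAAAGGAAAagggtgggaa
Zbtb18, GAAA repeat, chr1:177444413-177444442, plus strand: atgctgagctTTTCAATTTCttctgttaga
Zbtb18, NFIL3 site, chr1:177444859-177444888, plus strand: gtttgggtgttTTATTTAAttttttttaaa

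No such stretch is shown for Zbtb46 or Zbtb10. The RefSeq window of Zbtb46 lies next to a start site at position 181424388 of chromosome 2 (GRCm38), which is the first base of an exon in all 5 GENCODE transcripts of the gene. Only 1 of these 5 starts there, and the other 4 start up to 35038 bases upstream, so the window lies in an intron for them. The search found no window for Zbtb10. The matches of Zbtb7b and Zbtb18 lay 210 to 201, 230 to 221 and 68 to 61 bases before their RefSeq starts. In GENCODE, Zbtb7b begins further upstream, at 89394776 on the minus strand, and Zbtb18 at 177442351 on the plus strand. The matches shown for these genes therefore lie inside the annotated gene spans.

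Zbtb46 (ENSMUSG00000027583, GRCm38 chromosome 2, 181387762 to 181459426, minus strand) was present in all 28 libraries and lowest where cDC1 or hybrid cells carried the altered Irf8 enhancer. In experiment 1 it measured 23.7 and 25.5 CPM in the H/H hybrid libraries and 23.6 and 22.4 CPM in the H/+ hybrid libraries. In cDC1 it stood at 23.4 and 21.8 CPM in H/H, 24.8 and 24.6 CPM in H/+ and 32.3 and 32.2 CPM in WT libraries. In cDC2 it stood at 30.6 and 35.5 CPM in H/H, 30.4 and 33.2 CPM in H/+ and 33.5 and 34.6 CPM in WT libraries. The 8 libraries of +32H hybrid cells and cDC1 lay between 21.8 and 25.5 CPM and all others at 30.4 CPM or above, with no overlap. The lowest 4 group means (H/H cDC1, H/+ hybrid, H/H hybrid and H/+ cDC1) did not pass the test in the 3 contrasts run among them.

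Against WT cDC1, Zbtb46 fell in H/H cDC1 in both experiments. In experiment 1 the means were 22.6 ± 1.09 CPM in H/H cDC1 and 32.3 ± 0.0679 CPM in WT cDC1 (log2 fold change -0.52, SE 0.11, adjusted p = 0.00951, edgeR). In experiment 2, with other libraries, H/H cDC1 held 58.4 and 60.2 CPM and WT cDC1 88.9 and 84.4 CPM (log2 fold change -0.55, SE 0.11, adjusted p = 0.00558, edgeR). It was the 1 Zbtb gene called in this contrast in each experiment, where 4.17% and 6.29% of all genes were called, 2.71% and 4.37% as higher and 1.47% and 1.92% as lower. In H/+ cDC1, at 24.7 ± 0.0997 CPM, the difference from WT cDC1 was -0.39 on the log2 scale and did not pass (adjusted p = 0.0873, edgeR), while DESeq2 called it (adjusted p = 0.0372). In experiment 1 the edgeR call for H/H cDC1 was lost without WT cDC1 replicate 1 (adjusted p = 0.0597), WT cDC1 replicate 2 (0.0662) or H/H cDC1 replicate 2 (0.0904). In experiment 2 it was lost only when the fit held just the groups compared (0.0799). Markers of both cell types differed in the same contrasts. The 12 cDC1 markers, Irf8 among them, summed to 4560 to 4890 CPM in H/H cDC1 and 7420 to 8420 CPM in WT cDC1 of experiment 1, with 6 of 12 lower, and to 3930 to 4190 CPM in H/H cDC1 and 7160 to 7830 CPM in WT cDC1 of experiment 2, with 7 of 12 lower. The 12 cDC2 markers summed to 255 to 280 CPM in H/H cDC1 and 61.6 to 61.9 CPM in WT cDC1 of experiment 1, with 9 of 12 higher, and to 371 to 614 CPM in H/H cDC1 and 50.8 to 56.4 CPM in WT cDC1 of experiment 2, with 10 of 12 higher. Their part in the Zbtb46 result was not tested.

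In cDC2 no such difference of Zbtb46 passed. H/H cDC2 held 33.0 ± 3.52 CPM and WT cDC2 34.0 ± 0.812 CPM (log2 fold change -0.04, 95% interval -0.27 to 0.18). Tested as an interaction, the H/H change in cDC1 less that in cDC2 was -0.47 on the log2 scale (95% interval -0.79 to -0.16, adjusted p = 0.167, edgeR), so the changes were not shown to differ. The interaction called 0 of the 37 Zbtb genes by edgeR and by DESeq2, with 2 at an unadjusted p under 0.05, and 1.91% of all genes (1.41% higher, 0.505% lower). Irf8 itself averaged 97.8 ± 16.4 CPM in H/H cDC2 and 48.34 ± 0.679 CPM in WT cDC2 (log2 fold change 1.02, adjusted p = 0.00346, edgeR), so it rose there and fell in H/H cDC1.

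**Figure D2:**
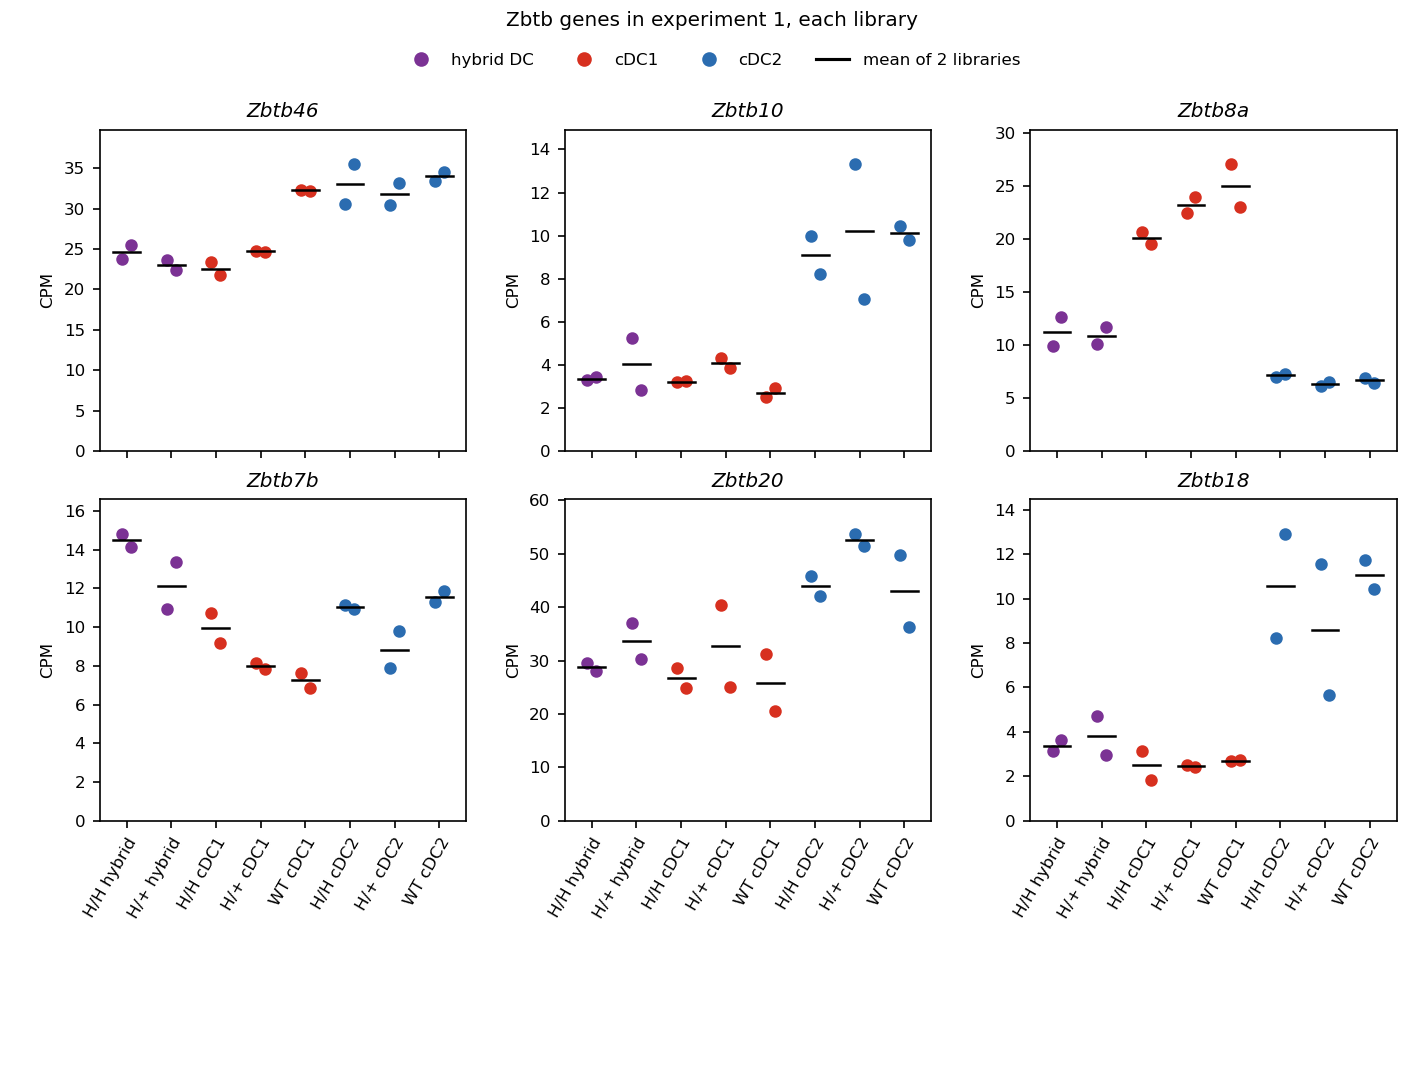
CPM of 6 Zbtb genes in each library of experiment 1 (dots, 2 per group; line, their mean), with hybrid cells left, cDC1 in the middle and cDC2 right, on axes that start at 0. Zbtb46 is at 21.8 to 25.5 CPM in the +32H hybrid cells and cDC1 and above 30 CPM elsewhere, Zbtb10 and Zbtb18 are highest in cDC2, Zbtb8a is highest in cDC1 with hybrid cells between, and Zbtb7b is highest in H/H hybrid cells.

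The distance between cDC1 and cDC2 was measured in each genotype of experiment 1, and 5 Zbtb genes stood apart in the same direction in all 3. Zbtb8a was higher in cDC1. Zbtb10, Zbtb16, Zbtb18 and Zbtb20 were lower in cDC1. In bulk samples fewer cells of a type and less RNA per cell cannot be told apart. The signs of the log2 fold changes agreed across the 3 genotypes in 26 of the 37 genes. Taken singly, the contrasts called 36.7% of all genes in H/H, 38.3% in H/+ and 44% in WT mice. The shares of all genes called, or with agreeing signs, in all 3 genotypes were not counted, so neither count is a result about Zbtb genes as a set.

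Zbtb8a (ENSMUSG00000028807, GRCm38 chromosome 4, 129353628 to 129378116, minus strand), whose function is little described, held 27.1 and 23.0 CPM in WT cDC1 and 6.93 and 6.45 CPM in WT cDC2. All 6 cDC1 libraries of experiment 1, at 19.5 CPM or more, lay above all 6 cDC2 libraries, at 7.31 CPM or less. The log2 fold change was 1.49 in H/H (SE 0.14, adjusted p = 9.73e-07), 1.87 in H/+ (SE 0.14, adjusted p = 7.45e-08) and 1.90 in WT cells (SE 0.14, adjusted p = 3.95e-08, all edgeR). Tested as an interaction, the H/H change in cDC1 less that in cDC2 was -0.42, with a 95% interval of -0.84 to 0.01. Zbtb8a shares 264 bases, 11.37% of its exons, with Zbtb8os on the other strand, and the labels do not state whether counting used strand. Zbtb8os stood at 33.67 ± 3.94 CPM in WT cDC1 and 32.01 ± 1.45 CPM in WT cDC2 and was not called.

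Zbtb10 (ENSMUSG00000069114, GRCm38 chromosome 3, 9250602 to 9285333, plus strand), known in human cells as a repressor of Sp transcription factors, held 2.51 and 2.91 CPM in WT cDC1 and 10.4 and 9.80 CPM in WT cDC2. It held 3.21 and 3.23 CPM in H/H cDC1 against 9.99 and 8.21 CPM in H/H cDC2, and 4.33 and 3.86 CPM in H/+ cDC1 against 13.3 and 7.06 CPM in H/+ cDC2. Every cDC2 library lay above every cDC1 library of experiment 1. The log2 fold changes were -1.5 in H/H (adjusted p = 8.92e-04), -1.32 in H/+ (adjusted p = 0.00187) and -1.89 in WT cells (adjusted p = 9.14e-05, edgeR). Within cDC1 and within cDC2 no difference of an Irf8 genotype from WT passed, with log2 fold changes between -0.15 and 0.60 over both experiments (adjusted p from 0.287 to 1, edgeR). Without WT cDC1 replicate 2 the H/H difference in cDC1 of experiment 2 was 1.09 (adjusted p = 0.0489).

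Zbtb18 (RP58), a repressor best known from neurons, went in the same direction as Zbtb10. It held 2.71 CPM in both WT cDC1 libraries and 11.7 and 10.4 CPM in WT cDC2 (log2 fold change -2.03, SE 0.35, adjusted p = 2.64e-04), and the log2 fold change was -2.08 in H/H and -1.79 in H/+ cells (adjusted p = 3.25e-04 and 9.52e-04, edgeR). Zbtb16 was near the limit of detection in cDC1, with 1 count over both WT libraries against 245 counts over the WT cDC2 libraries, a ratio of 190 with a 95% counting interval of 33.8 to 7530. Its cDC2 level differed between replicates, at 1.32 and 4.95 CPM in WT cells. Zbtb20, known for its part in plasma cells and in silencing the fetal liver gene Afp, held 31.2 and 20.5 CPM in WT cDC1 and 49.7 and 36.3 CPM in WT cDC2 (log2 fold change -0.74, adjusted p = 0.0205). Its log2 fold change was -0.72 in H/H and -0.68 in H/+ cells (adjusted p = 0.0272 and 0.0324, edgeR). The Zbtb20 call was lost without WT cDC1 replicate 2 (-0.46, adjusted p = 0.181) or WT cDC2 replicate 1 (-0.49, adjusted p = 0.175), and in H/H cells without any of the 4 libraries. In H/+ cells it was lost without H/+ cDC1 replicate 2 (-0.38, adjusted p = 0.248), H/+ cDC2 replicate 1 or H/+ cDC2 replicate 2.

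Markers of other cells differed between cDC1 and cDC2 as well, those of T cells and of NK and innate lymphoid cells, of which some subsets express Zbtb16, among them. The 8 T cell markers summed to 11.4 to 19.3 CPM in WT cDC1 and 18.9 to 32.9 CPM in WT cDC2. By edgeR 3 of 8 were lower in cDC1, and DESeq2 called 1. The 8 NK and innate lymphoid markers summed to 8.04 to 8.68 CPM in WT cDC1 and 16.2 to 17.0 CPM in WT cDC2. By edgeR 1 of 5 tested was higher and 3 were lower, and DESeq2 called 2. In these lists 0 genes were at 0 in both libraries of a WT group. Between cDC1 and cDC2 of H/H and of H/+ mice 0 of the 8 T cell markers passed by edgeR and by DESeq2, with 0 and 1 at an unadjusted p under 0.05. Of the 5 NK and innate lymphoid markers tested, Gata3 and Il7r were lower in cDC1 in each of these genotypes. The 10 monocyte and macrophage markers summed to 117 to 169 CPM in WT cDC1 and 930 to 975 CPM in WT cDC2, with 7 of 10 lower in cDC1 in WT and 8 of 10 in each of H/+ and H/H mice. The 8 B cell markers summed to 489 to 561 CPM in WT cDC1 and 557 to 599 CPM in WT cDC2. By edgeR 1 of 7 tested was higher and 4 were lower in WT and in H/+ mice, and 1 was higher and 2 lower in H/H mice. In WT mice DESeq2 called 4 of them. In bulk samples other cells cannot be told from expression of these markers by the sorted cells. Any part of other cells in the Zbtb10, Zbtb16, Zbtb18 and Zbtb20 results was not tested.

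Between WT cDC1 and WT cDC2, 15 of 37 Zbtb genes passed, 3 higher and 12 lower in cDC1, where 44% of all genes were called, 20.5% higher and 23.5% lower. Besides Zbtb8a, the rises were those of Zbtb42 (4.37 ± 0.343 against 2.11 ± 0.343 CPM, adjusted p = 0.00787) and Zbtb3 (4.47 ± 0.680 against 2.80 ± 0.325 CPM, adjusted p = 0.0227, edgeR). Besides the 4 above, the falls were those of Zbtb7b (7.25 ± 0.534 against 11.6 ± 0.408 CPM, adjusted p = 0.00199), Zbtb26 (1.5 ± 0.00785 against 2.63 ± 0.160 CPM), the low-level Zbtb32, and Zbtb21, Zbtb1, Zbtb24, Zbtb17 and Zbtb11 (Zbtb32, Zbtb17 and Zbtb11 were named after their values were seen). The last 5 had log2 fold changes between -0.56 and -0.35. Without 1 of the 4 libraries some of these calls were lost, with adjusted p from 0.0511 to 0.17. These were Zbtb26, Zbtb3, Zbtb21 and Zbtb1 without WT cDC1 replicate 1, Zbtb42, Zbtb26, Zbtb1 and Zbtb24 without WT cDC1 replicate 2, and all 6 of them without WT cDC2 replicate 2. Zbtb17 was lost without WT cDC1 replicate 2 or WT cDC2 replicate 2, Zbtb32 without any library but WT cDC2 replicate 2, and Zbtb11 without any of the 4. DESeq2 did not call Zbtb11 (adjusted p = 0.0622) or Zbtb26 (0.0501), and without the filter on low counts edgeR did not call Zbtb11 (0.0631), Zbtb26 (0.0841) or Zbtb3 (0.0738). The median log2 fold change was -0.10 over the 37 genes and -0.07 over all genes tested. Zbtb46 did not pass here (-0.08, 95% interval -0.30 to 0.15, adjusted p = 0.593, edgeR).

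In H/H cells 11 genes passed between cDC1 and cDC2, 3 higher and 8 lower, where 36.7% of all genes were called (17.6% higher, 19.1% lower). In H/+ cells 9 passed, 3 higher and 6 lower, where 38.3% were called (18.3% higher, 20% lower). Zbtb46 was among the falls in both. In H/H mice its mean was 22.6 ± 1.09 CPM in cDC1 and 33.0 ± 3.52 CPM in cDC2 (-0.55, SE 0.11, adjusted p = 8.32e-04), and in H/+ mice it was 24.7 ± 0.0997 CPM in cDC1 and 31.8 ± 1.95 CPM in cDC2 (-0.36, SE 0.11, adjusted p = 0.0128, edgeR). The H/+ call was lost without H/+ cDC1 replicate 2 (adjusted p = 0.0545) or H/+ cDC2 replicate 2 (0.0954), and with just the groups compared in the fit (0.104). The remaining calls were Zbtb42, Zbtb5, Zbtb17, Zbtb21 and Zbtb26 in H/H cells and Zbtb5, Zbtb44 and Zbtb4 in H/+ cells, with log2 fold changes between -0.75 and 0.78. Of these, Zbtb4 held without each library in turn, and each of the others was lost without 2 or more of the 4 libraries, with adjusted p from 0.0556 to 0.291.

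**Figure D3:**
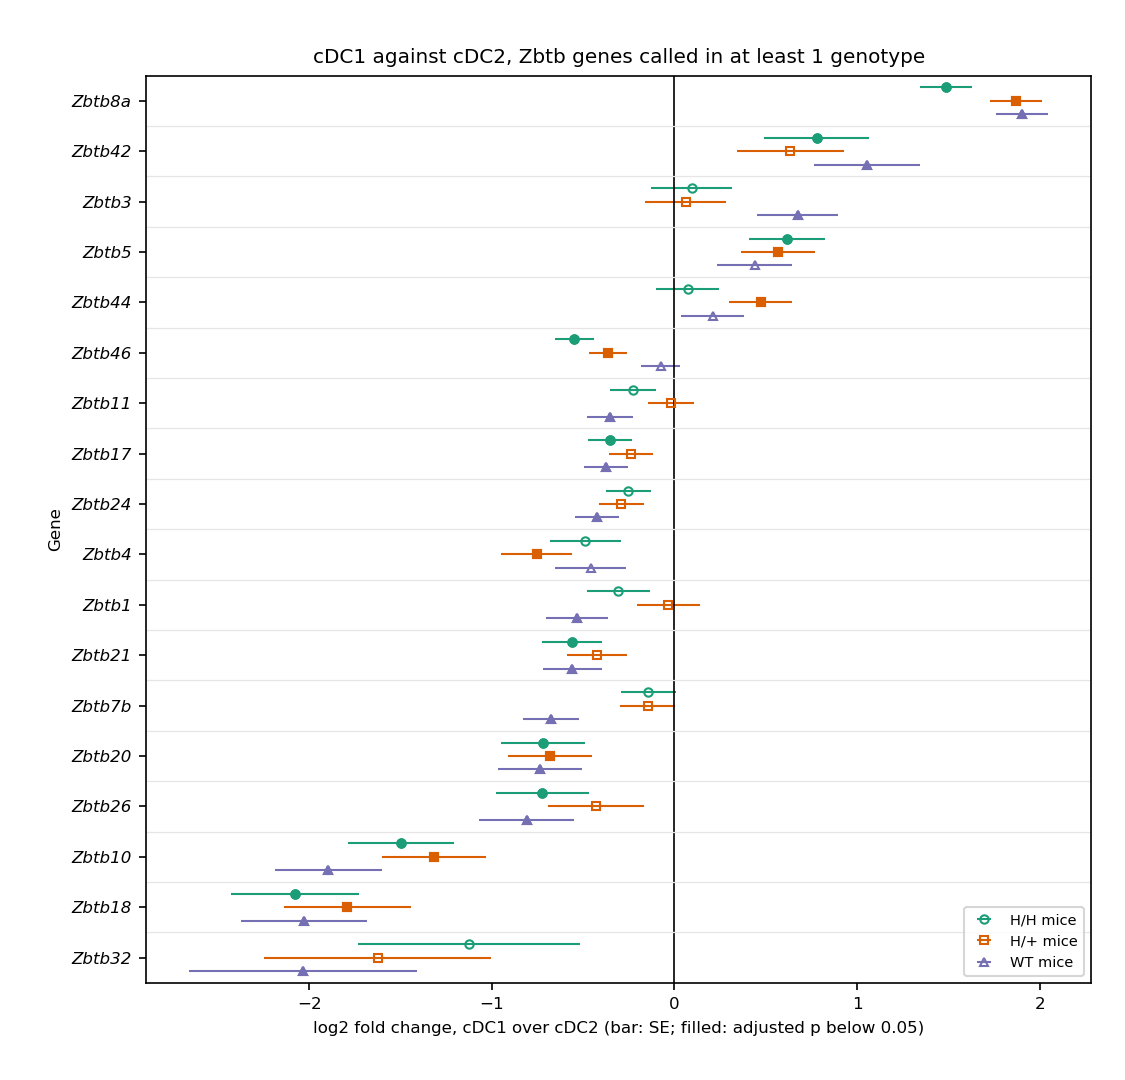
log2 fold change of cDC1 over cDC2 in H/H, H/+ and WT mice of experiment 1 for the 18 Zbtb genes called in at least 1 genotype other than Zbtb16; bars are standard errors and filled symbols have an adjusted p below 0.05. Zbtb8a lies at 1.49 to 1.90, Zbtb18 and Zbtb10 lie below -1.3 in all 3 genotypes, and Zbtb46 is at -0.08 in WT and at -0.36 and -0.55 in H/+ and H/H mice.

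Other genotype contrasts of experiment 1 moved few Zbtb genes. In H/+ cDC1 against WT cDC1 only Zbtb11 passed, at 27.1 and 23.0 CPM in H/+ and 16.2 and 16 CPM in WT cDC1 (log2 fold change 0.64, SE 0.13, adjusted p = 0.0226, edgeR), where 1.47% of all genes were called (1.16% higher). The call was lost without WT cDC1 replicate 1 (adjusted p = 0.13), WT cDC1 replicate 2 (0.159) or H/+ cDC1 replicate 1 (0.199), and with just the groups compared (0.14). Zbtb11 shares 238 exon bases with Pcnp on the other strand, which stood at 164.9 ± 6.02 CPM in H/+ and 170 ± 27.4 CPM in WT cDC1. In cDC2, 0 of 37 genes passed in H/H and 0 in H/+ against WT by edgeR and by DESeq2, with 1 and 5 genes at an unadjusted p under 0.05, where 0.0811% of all genes were called in H/H (0.0686% higher, 0.0125% lower) and 0.0249% in H/+, all as higher. Zbtb10 stood at 9.10 ± 1.26 CPM in H/H cDC2, 10.2 ± 4.43 CPM in H/+ cDC2 and 10.1 ± 0.456 CPM in WT cDC2. H/H hybrid cells against H/+ hybrid cells also gave 0 by both tools, with 2 genes at an unadjusted p under 0.05 and 0.131% of all genes called, all as lower.

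Within each genotype, hybrid cells were compared with cDC1 and, in experiment 1, with cDC2. The contrasts of 1 genotype share the hybrid libraries. Relative to cDC1, hybrid cells held less Zbtb8a and more Zbtb7b. Relative to cDC2, they held less Zbtb10, Zbtb16, Zbtb18, Zbtb32 and Zbtb46 and more Zbtb8a, in both H/H and H/+ mice.

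Zbtb8a stood at 9.93 and 12.6 CPM in H/H hybrid cells and 10.1 and 11.7 CPM in H/+ hybrid cells, below every cDC1 library and above every cDC2 library of experiment 1. Against cDC1 the log2 fold change was -0.83 in H/H (SE 0.14, adjusted p = 0.00127) and -1.09 in H/+ cells (SE 0.14, adjusted p = 5.47e-05). Against cDC2 it was 0.66 in H/H (SE 0.14, adjusted p = 0.00335) and 0.78 in H/+ cells (SE 0.15, adjusted p = 0.00146, edgeR). Without H/H hybrid replicate 2 the H/H difference from cDC2 no longer passed (0.47, adjusted p = 0.0672).

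Zbtb7b (ENSMUSG00000028042, GRCm38 chromosome 3, 89377644 to 89394776, minus strand) stood at 14.8 and 14.2 CPM in H/H hybrid cells, against 10.8 and 9.19 CPM in H/H cDC1 (log2 fold change 0.54, SE 0.15, adjusted p = 0.0388). In H/+ mice it stood at 10.9 and 13.4 CPM in hybrid cells and 8.15 and 7.82 CPM in cDC1 (0.61, SE 0.15, adjusted p = 0.0119). In experiment 2 it stood at 14.4 and 17.4 CPM in H/H hybrid cells and 9.82 and 10.6 CPM in H/H cDC1 (0.64, SE 0.18, adjusted p = 0.0272, edgeR). In all 3 comparisons both hybrid libraries lay above both cDC1 libraries. Each H/H call was lost without any of the 4 libraries compared, with adjusted p from 0.067 to 0.29 in experiment 1 and from 0.0513 to 0.24 in experiment 2, and the H/+ call was lost without H/+ cDC1 replicate 2 (0.0606) or H/+ hybrid replicate 2 (0.166). Against cDC2, Zbtb7b passed in H/+ cells (0.46, adjusted p = 0.0454) and not in H/H cells (0.39, adjusted p = 0.0648, edgeR). The H/+ call was lost without H/+ hybrid replicate 2 (0.336) or H/+ cDC2 replicate 1 (0.281), by DESeq2 (0.0692), without the filter on low counts (0.122) and with DESeq2 size factors (0.0547). With just the groups compared, the H/+ calls against cDC1 (0.064) and cDC2 (0.166) were lost.

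The counts for hybrid cells against cDC1 were 2 of 37 in H/H cells (1 higher, 1 lower), where 7.85% of all genes were called (5.24% higher, 2.61% lower). In H/+ cells they were 3 of 37 (2 higher, 1 lower), where 16.4% were called (9.77% higher, 6.67% lower). The additional H/+ gene was Zbtb24, at 20.7 ± 1.38 CPM in hybrid cells and 15.7 ± 1.59 CPM in cDC1 (adjusted p = 0.035, edgeR), a call lost without H/+ cDC1 replicate 2 (0.208), H/+ hybrid replicate 1 (0.0683) or H/+ hybrid replicate 2 (0.231), without the filter on low counts (0.0865) and with just the groups compared (0.124). In experiment 2, H/H hybrid cells differed from H/H cDC1 in Zbtb7b alone, where 12.5% of all genes were called (7.24% higher, 5.25% lower), and Zbtb8a stood at 6.27 ± 0.261 CPM in hybrid cells and 10.9 ± 2.02 CPM in cDC1 (-0.80, adjusted p = 0.0548). Zbtb46 and Zbtb10 did not pass between hybrid cells and cDC1. For Zbtb46 the log2 fold change was 0.12 in H/H and -0.10 in H/+ cells of experiment 1 and -0.18 in H/H cells of experiment 2 (adjusted p from 0.343 to 0.599). For Zbtb10 it was 0.06, -0.03 and 0.04, with a widest 95% interval of -0.66 to 0.70 over these 3 contrasts.

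Against cDC2, 7 of 37 genes passed in H/H hybrid cells (1 higher, 6 lower), where 25.4% of all genes were called (12.9% higher, 12.5% lower). In H/+ hybrid cells 7 passed (2 higher, 5 lower), where 19% were called (10.3% higher, 8.7% lower). Zbtb46 was 24.6 ± 1.27 CPM in H/H hybrid cells and 33.0 ± 3.52 CPM in H/H cDC2 (-0.42, SE 0.11, adjusted p = 0.00785). It was 23.0 ± 0.830 CPM in H/+ hybrid cells and 31.8 ± 1.95 CPM in H/+ cDC2 (-0.47, SE 0.11, adjusted p = 0.00588, edgeR). The H/H call was lost without H/H hybrid replicate 1 (0.0832) or H/H cDC2 replicate 2 (0.095), and the H/+ call without H/+ hybrid replicate 2 (0.0682) or H/+ cDC2 replicate 2 (0.0537).

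Zbtb10 was 3.36 ± 0.0767 CPM in H/H hybrid cells and 9.10 ± 1.26 CPM in H/H cDC2 (-1.44, SE 0.29, adjusted p = 0.00187). It was 4.05 ± 1.71 CPM in H/+ hybrid cells and 10.2 ± 4.43 CPM in H/+ cDC2 (-1.34, SE 0.29, adjusted p = 0.00404, edgeR). The H/+ call was lost without H/+ hybrid replicate 2 (-0.94, adjusted p = 0.0677) or H/+ cDC2 replicate 1 (-0.81, adjusted p = 0.0748), and with just the groups compared (adjusted p = 0.104). Zbtb18 was 3.38 ± 0.349 CPM in H/H hybrid cells and 10.6 ± 3.31 CPM in H/H cDC2 (-1.64, SE 0.34, adjusted p = 0.00256). In H/+ cells its call (-1.17, adjusted p = 0.0261) was lost without H/+ hybrid replicate 2 (-0.85, adjusted p = 0.22) or H/+ cDC2 replicate 1 (-0.57, adjusted p = 0.309). Zbtb16 was 0.490 ± 0.00326 CPM in H/H hybrid cells and 2.59 ± 0.0307 CPM in H/H cDC2 (-2.39, adjusted p = 0.0406), and 0.750 ± 0.746 CPM in H/+ hybrid cells and 4.80 ± 3.20 CPM in H/+ cDC2 (-2.63, adjusted p = 0.0272, edgeR). Its H/H call was lost without any of the 4 libraries (adjusted p from 0.109 to 0.175) and its H/+ call without H/+ hybrid replicate 1 (0.141) or H/+ cDC2 replicate 2 (0.199). With just the groups compared, the H/+ calls of Zbtb18 (0.121) and Zbtb16 (0.141) were lost. Zbtb32, at a mean of 1.03 CPM or less in each of these groups, lost its H/+ call without any of the 4 libraries and its H/H call without any but H/H hybrid replicate 2 (adjusted p from 0.066 to 0.224).

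Markers of other cells differed in the same contrasts. The 10 monocyte and macrophage markers summed to 607 to 663 CPM in H/H hybrid cells, 151 to 169 CPM in H/H cDC1 and 826 to 852 CPM in H/H cDC2, with 8 of 10 higher in hybrid cells than in cDC1. The 8 T cell markers summed to 6.24 to 7.14 CPM in H/H hybrid cells, 12.3 to 14.7 CPM in H/H cDC1 and 14.1 to 15.5 CPM in H/H cDC2, with 1 of 8 lower in hybrid cells than in cDC1 and 3 of 8 lower than in cDC2. In H/+ mice the monocyte and macrophage markers summed to 701 to 748 CPM in hybrid cells, 110 to 156 CPM in cDC1 and 781 to 946 CPM in cDC2, with 8 of 10 higher and 1 lower than in cDC1, and 0 of 8 T cell markers passed against cDC1 by edgeR (3 at an unadjusted p under 0.05, and 1 called by DESeq2) and 2 of 8 were lower than in cDC2. The NK and innate lymphoid markers summed to 9.26 to 9.94 CPM in H/H hybrid cells and 17.0 to 21.3 CPM in H/H cDC2, with 3 of 5 tested lower, and to 8.48 to 10.7 CPM in H/+ hybrid cells and 16.6 to 21 CPM in H/+ cDC2, with 4 of 5 lower. The 6 neutrophil markers summed to 2.29 to 3.73 CPM in H/H hybrid cells and 0.115 to 0.454 CPM in H/H cDC1, with 2 of 4 tested higher, and to 1.69 to 5.61 CPM in H/+ hybrid cells and 0.44 to 0.541 CPM in H/+ cDC1, with 3 of 4 higher. In these groups Camp and Ly6g were at 0 in H/H hybrid cells, Camp in H/H cDC1 and Ly6g in H/+ cDC1, while no T cell, NK and innate lymphoid or monocyte and macrophage marker was at 0. Any part of other cells in the Zbtb results was not tested.

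**Figure D4:**
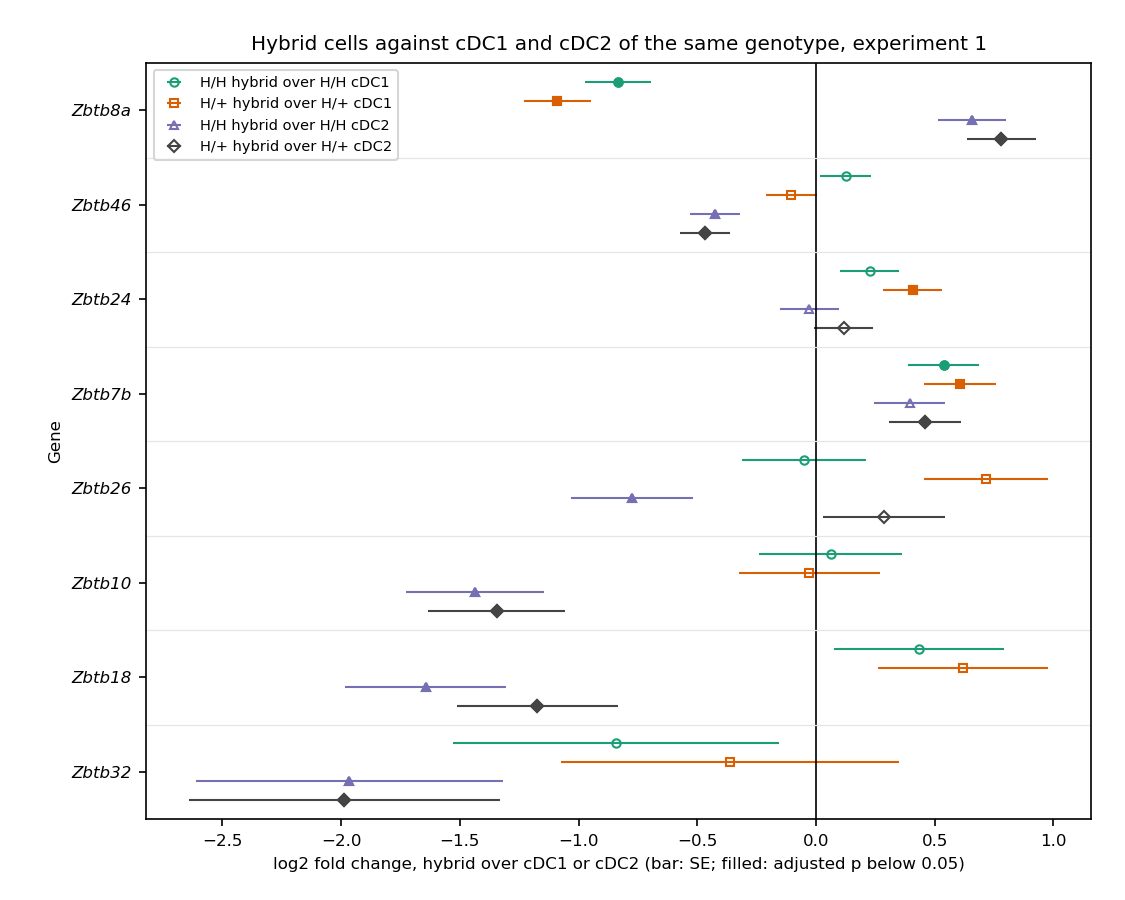
log2 fold change of hybrid cells over cDC1 and over cDC2 of the same genotype in experiment 1, for the 8 Zbtb genes called in at least 1 of the 4 contrasts other than Zbtb16; bars are standard errors and filled symbols have an adjusted p below 0.05. Zbtb8a is below 0 against cDC1 and above 0 against cDC2, Zbtb7b is above 0 in all 4, and Zbtb46, Zbtb10 and Zbtb18 are called against cDC2 and not against cDC1.

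Loss of Nfil3 went with lower Zbtb10 and Zbtb20 in both cell types of experiment 2. Zbtb10 stood at 2.81 and 3.26 CPM in H/H Nfil3-/- cDC1, against 16.9 and 10.9 CPM in H/H cDC1. In hybrid cells it stood at 5.0 and 3.05 CPM in H/H Nfil3-/- and 14.3 CPM in both H/H libraries. All 4 Nfil3-/- libraries lay below all 8 other libraries of the experiment, the lowest of which was a WT cDC1 library at 6.46 CPM. The log2 fold change was -2.19 in cDC1 (SE 0.31, adjusted p = 9.63e-04) and -1.84 in hybrid cells (SE 0.30, adjusted p = 0.00287, edgeR). The call held without each library in turn, with adjusted p up to 0.0446.

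Zbtb20 (ENSMUSG00000022708, GRCm38 chromosome 16, 42875881 to 43642602, plus strand) held 14.8 and 14.3 CPM in H/H Nfil3-/- cDC1, against 31.0 and 27.4 CPM in H/H cDC1. It stood at 17.5 and 17.7 CPM in H/H Nfil3-/- hybrid cells and 31.5 and 39.5 CPM in H/H hybrid cells. The 4 Nfil3-/- libraries again lay below all others, the lowest of which was a WT cDC1 library at 24.8 CPM. The log2 fold change was -1.0 in cDC1 (SE 0.17, adjusted p = 0.00337) and -1.01 in hybrid cells (SE 0.17, adjusted p = 0.00261, edgeR). Without H/H hybrid replicate 2 the hybrid difference was -0.83 (adjusted p = 0.0693).

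These were the only Zbtb genes called for the loss of Nfil3, 2 of 35 in each cell type, where 3.03% of all genes were called in cDC1 (1.34% higher, 1.69% lower) and 3.72% in hybrid cells (1.93% higher, 1.79% lower). The difference between the effects in hybrid cells and in cDC1 was 0.35 for Zbtb10 (95% interval -0.56 to 1.26) and -0.01 for Zbtb20 (95% interval -0.52 to 0.50). That interaction called 0 of 35 Zbtb genes by edgeR and by DESeq2, with 0 at an unadjusted p under 0.05, and 0.00689% of all genes, all as lower. Zbtb46 passed in neither cell type (0.24 in cDC1, adjusted p = 0.305, and 0.32 in hybrid cells, adjusted p = 0.126, edgeR), although its Nfil3-/- libraries, at 62.6 to 71.7 CPM, lay above the H/H libraries, at 51.4 to 60.2 CPM. With just the groups compared in the fit the hybrid difference passed (adjusted p = 0.0414).

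Neutrophil markers differed in the same comparison, and erythroid markers did so in part. The 6 neutrophil markers summed to 17.0 to 18.5 CPM in H/H Nfil3-/- cDC1 and 0.223 to 0.46 CPM in H/H cDC1, with 3 of 5 tested higher and Camp, Ly6g and Retnlg at 0 in H/H cDC1. They summed to 33.1 to 59.3 CPM in H/H Nfil3-/- hybrid cells and 3.42 to 4.23 CPM in H/H hybrid cells, with 2 of 5 tested higher and Ly6g at 0 in H/H hybrid cells. The 5 erythroid markers summed to 32.7 to 77.4 CPM in H/H Nfil3-/- cDC1 and 4.71 to 6.43 CPM in H/H cDC1, with 1 of 5 higher by edgeR and 3 called by DESeq2. They summed to 44.7 to 94.5 CPM in H/H Nfil3-/- hybrid cells and 14.7 to 58.0 CPM in H/H hybrid cells, where 0 of 5 passed by edgeR and by DESeq2, with 2 at an unadjusted p under 0.05. Any part of neutrophils or erythroid cells in the Zbtb10 and Zbtb20 results was not tested.

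**Figure D5:**
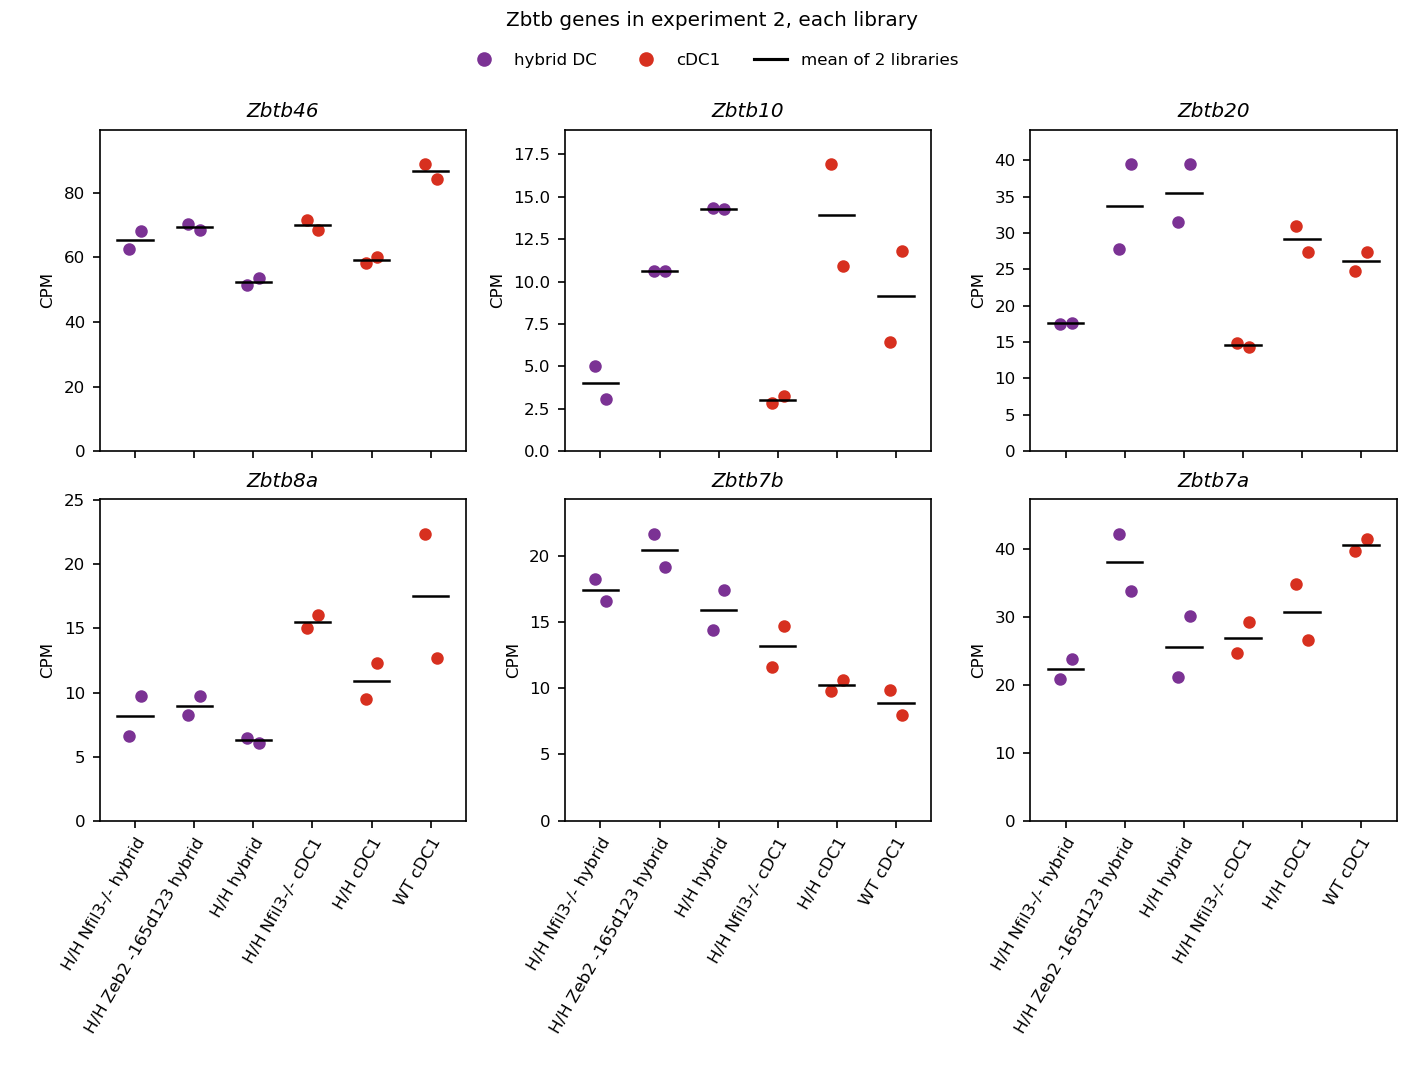
CPM of 6 Zbtb genes in each library of experiment 2 (dots, 2 per group; line, their mean), hybrid cells left and cDC1 right, on axes that start at 0. Zbtb10 and Zbtb20 are lowest in the 4 H/H Nfil3-/- libraries, at 2.81 to 5.0 CPM and 14.3 to 17.7 CPM, and Zbtb46 is highest in WT cDC1, at 84.4 and 88.9 CPM.

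The altered Zeb2 enhancer moved no Zbtb gene past the threshold in hybrid cells. Of 35 genes, 0 passed by edgeR, with 5 at an unadjusted p under 0.05, and 1 passed by DESeq2, where edgeR called 4.02% of all genes (2.23% higher, 1.79% lower). Zbtb46 stood at 70.3 and 68.6 CPM in Zeb2 -165d123 hybrid cells and 51.4 and 53.5 CPM in H/H hybrid cells, without overlap (log2 fold change 0.41, 95% interval 0.17 to 0.65, adjusted p = 0.0557 by edgeR and 0.0274 by DESeq2). Zbtb10 stood at 10.6 CPM in both Zeb2 -165d123 libraries and 14.3 CPM in both H/H libraries (-0.43, 95% interval -1.02 to 0.16, adjusted p = 0.483, edgeR).

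Set against Zeb2 -165d123 hybrid cells, H/H Nfil3-/- hybrid cells were lower in 4 of 35 Zbtb genes and higher in 0, where 10.9% of all genes were called (5.22% higher, 5.69% lower). Zbtb10 was 4.03 ± 1.38 CPM in Nfil3-/- and 10.6 ± 0.0141 CPM in Zeb2 -165d123 cells (-1.41, SE 0.30, adjusted p = 0.00766). Zbtb20 was 17.6 ± 0.104 CPM in Nfil3-/- and 33.7 ± 8.24 CPM in Zeb2 -165d123 cells (-0.94, SE 0.17, adjusted p = 0.00196). Zbtb7a was 22.3 ± 2.04 CPM in Nfil3-/- and 38.0 ± 5.98 CPM in Zeb2 -165d123 cells (-0.76, SE 0.18, adjusted p = 0.0136). Zbtb21 was 22.3 ± 0.125 CPM in Nfil3-/- and 30.6 ± 2.56 CPM in Zeb2 -165d123 cells (-0.46, SE 0.13, adjusted p = 0.0351, edgeR). These 4 calls rest on few libraries. The Zbtb10 call was lost without Zeb2 -165d123 hybrid replicate 2 (adjusted p = 0.0501) or Nfil3-/- hybrid replicate 2 (0.109), and the Zbtb20 call without Zeb2 -165d123 hybrid replicate 2 (0.0563). The Zbtb7a call was lost without Zeb2 -165d123 hybrid replicate 1 (0.126), Nfil3-/- hybrid replicate 1 (0.124) or Nfil3-/- hybrid replicate 2 (0.0587), and the Zbtb21 call without any of the 4, by DESeq2 (0.0587) and without the filter on low counts (0.165). Other markers differed between these cells too. The monocyte and macrophage markers summed to 454 to 563 CPM in Nfil3-/- and 720 to 828 CPM in Zeb2 -165d123 hybrid cells, with 1 of 10 higher and 6 lower. The neutrophil markers summed to 33.1 to 59.3 CPM in Nfil3-/- and 2.67 to 13.8 CPM in Zeb2 -165d123 hybrid cells, with 2 of 5 tested higher and Camp and Ly6g at 0 in Zeb2 -165d123 cells. The T cell markers summed to 1.73 to 2.02 CPM in Nfil3-/- and 5.21 to 5.28 CPM in Zeb2 -165d123 hybrid cells, with 2 of 8 lower by edgeR and 0 called by DESeq2. The B cell markers summed to 743 to 934 CPM in Nfil3-/- and 649 to 671 CPM in Zeb2 -165d123 hybrid cells, with 1 of 4 tested higher and 1 lower, and Ebf1 and Fcmr at 0 in Nfil3-/- cells. Their part in the 4 Zbtb results was not tested.

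H/H Nfil3-/- hybrid cells differed from H/H Nfil3-/- cDC1 in Zbtb8a alone, of 35 genes, where 5.28% of all genes were called (4.02% higher, 1.26% lower). It stood at 6.63 and 9.70 CPM in hybrid cells and 15.0 and 16 CPM in cDC1 (-0.92, SE 0.25, adjusted p = 0.0429, edgeR). Without H/H Nfil3-/- cDC1 replicate 1 (0.113), H/H Nfil3-/- cDC1 replicate 2 (0.235) or H/H Nfil3-/- hybrid replicate 1 (0.35) it no longer passed. Zbtb7b stood at 18.3 and 16.6 CPM in hybrid cells and 11.6 and 14.7 CPM in cDC1 and did not pass (0.40, adjusted p = 0.242).

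Levels were read within each experiment, because the same labelled groups differed between them. In H/H cDC1, Zbtb46 averaged 59.3 ± 1.27 CPM in the second experiment and 22.6 ± 1.09 CPM in the first. In H/H hybrid cells, Zbtb10 averaged 14.3 ± 0.0452 CPM in the second and 3.36 ± 0.0767 CPM in the first. Nfil3 averaged 48.4 ± 9.75 CPM in the second and 10.7 ± 1.36 CPM in the first in the same cells. These differences were not tested.

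Among 8 BTB zinc finger genes with other names, 7 were tested. Between WT cDC1 and WT cDC2, 5 of 7 were lower and 0 higher in cDC1, where 23.5% of all genes were lower and 20.5% higher. Bcl6, a repressor of germinal centre B cells and follicular helper T cells, was at 35.5 ± 2.90 CPM in WT cDC1 and 69.9 ± 2.26 CPM in WT cDC2 (-0.98, SE 0.12, adjusted p = 9.35e-06), and the others were Hic1, Mynn, Patz1 and Zfp131. Bcl6 was also lower in H/H hybrid cells than in H/H cDC2 (42.5 ± 1.00 and 66.8 ± 4.70 CPM, adjusted p = 9.13e-04) and in H/+ hybrid cells than in H/+ cDC2 (51.8 ± 3.67 and 79.4 ± 6.21 CPM, adjusted p = 0.00197, edgeR). In H/H cDC1 of experiment 2 it was 38.8 ± 7.82 CPM against 58.75 ± 1.04 CPM in WT cDC1 (-0.60, adjusted p = 0.0361, edgeR). In experiment 1 it was 36.4 ± 0.502 CPM in H/H cDC1 and 35.5 ± 2.90 CPM in WT cDC1 (0.03, adjusted p = 0.948, edgeR). For the loss of Nfil3 0 of the 7 passed in cDC1 and 0 in hybrid cells by edgeR and by DESeq2, with 0 and 2 at an unadjusted p under 0.05. For the altered Zeb2 enhancer 0 passed by either tool, with 0 at that p. Of all genes, edgeR called 3.03% and 3.72% for the loss of Nfil3 and 4.02% for the Zeb2 enhancer. The counts of 0 are therefore no result about these 7 genes as a set.

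Of 18 genes for partners of BTB domains, corepressor subunits and the Cul3 ligase, 4 were higher and 4 lower in WT cDC1 than in WT cDC2, a share near that of all genes (44% called, 20.5% higher, 23.5% lower). Nacc2, a BTB corepressor, was higher, at 9.67 ± 0.842 CPM in WT cDC1 and 2.74 ± 0.371 CPM in WT cDC2 (1.81, SE 0.21, adjusted p = 5.43e-06, edgeR). Hdac1, Rbx1 and Sin3b were also higher, and Bcor, Cul3, Sin3a and Tbl1xr1 were lower. Nacc2 fell in H/H cDC1 of experiment 2, at 5.80 ± 0.891 CPM against 13.5 ± 1.86 CPM in WT cDC1 (-1.22, SE 0.23, adjusted p = 0.00274, edgeR). In experiment 1 it did not pass, at 5.88 ± 0.217 CPM in H/H cDC1 and 9.67 ± 0.842 CPM in WT cDC1 (-0.72, SE 0.20, adjusted p = 0.0657, edgeR). For the loss of Nfil3, 0 of the 18 passed in cDC1 and 0 in hybrid cells by edgeR and by DESeq2, with 3 and 5 at an unadjusted p under 0.05. Of all genes, edgeR called 3.03% in cDC1 and 3.72% in hybrid cells, so 0 of 18 is no result about these partners as a set.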

How the data were processed

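The deposited tables, 1 per experiment, hold estimated counts per gene, as deposited by the authors. Of these values 10.8% and 10.2% are not whole, and they were rounded. DRAGEN, bcl2fastq and edgeR are named in the submitters' processing notes, without versions. The genome build and whether counting used strand are not given in the sources used here. Per the labels' protocols, RNA with an integrity number above 9.0 was amplified from 10 ng with a SMARTer kit in 12 to 15 PCR cycles, so counts are not independent molecules and intervals from counts cover counting error only. Depth ranged from 17.54 to 38.17 M counts a library.

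Lines that repeat a gene ID with the same counts (287 per table) were dropped, which left 55487 genes. Each experiment was fitted on its own with all its groups in edgeR 4.0.16 (R 4.3.3): filterByExpr, TMM scaling, robust quasi-likelihood F tests, and Benjamini-Hochberg adjustment over all 16037 and 14504 genes tested, with a threshold of 0.05. CPM are TMM-scaled, and standard errors are the log2 fold change over the root of F. Length-scaled levels and gene positions use GENCODE M21 (GRCm38), whose IDs match 99.376% of the genes and all 40 Zbtb genes. DESeq2 1.42.0, other scalings and filters, narrower and wider fits, a replicate block, a term for libraries with Xist and leaving out each library were the alternatives. Figures were drawn with matplotlib 3.10.9. On simulated data in which all genes shared 1 spread, the fit recovered 8.7% (experiment 1) and 8.5% (experiment 2) of 1.5-fold changes. For 2-fold changes it recovered 51.5% and 62.9%, and for 4-fold changes 87.7% and 94.9%. A gene that did not pass may therefore still differ. In the simulation each size of change was given to 59 to 71 genes, far fewer than were called in the contrasts it copied. Those called 44% (WT cDC1 against WT cDC2) and 12.5% (H/H hybrid cells against H/H cDC1 of experiment 2) of all genes. The adjustment depends on how many genes change, so the shares recovered need not hold for those contrasts.

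The members and gene lists were chosen with earlier results of these data known. Zbtb46 and Zbtb10 were named in every contrast. Other genes were named if called, without overlap between the libraries compared and at 2 CPM or more in the higher group, up to 12 per contrast by size. The 8 genes with the smallest p over all groups, the 6 highest per length and the untested genes were also named.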

Additional observations from a re-analysis of the deposited data

Results flagged for a closer look

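Zbtb46 had small estimates of opposite sign between hybrid cells and cDC1 in the genotypes of experiment 1. Its log2 fold change was -0.10 in H/+ mice and 0.12 in H/H mice, and in each genotype both hybrid libraries lay on 1 side of both cDC1 libraries. Neither passed the edgeR test, so no difference was shown in either genotype, and the difference between the genotypes was not tested. The share of all genes with such a pattern was not counted.

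Zbtb26 had estimates of opposite sign between hybrid cells and cDC2. Its log2 fold change was 0.29 in H/+ mice (2.72 and 2.45 CPM in hybrid cells and 1.92 and 2.31 CPM in cDC2) and -0.78 in H/H mice (1.87 and 1.92 CPM in hybrid cells and 3.07 and 3.41 CPM in cDC2). The H/H difference passed (adjusted p = 0.0368, edgeR), a call lost without any of the 4 libraries (adjusted p from 0.0904 to 0.158), and the H/+ difference did not (adjusted p = 0.503, edgeR). The libraries did not overlap in either genotype, and the difference between the genotypes was not tested. How many of all genes show such a pattern was not counted.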

How the results depend on the processing

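Of 140 counts of Zbtb genes called under settings that kept all libraries, 124 were within 1.5 times of the value reported. With just the groups compared in the fit, the count was 0 in place of 1 for H/+ against WT cDC1 and for H/H against WT cDC1 of experiment 2, 1 in place of 3 for H/+ hybrid cells against cDC1, 4 in place of 7 for H/+ hybrid cells against cDC2, 2 in place of 1 for H/H hybrid cells against cDC1 of experiment 2, and 4 in place of 2 for Nfil3-/- against H/H hybrid cells. DESeq2 called 2 in place of 1 for H/+ against WT cDC1 and for H/H hybrid cells against cDC1 of experiment 2, and 1 in place of 0 for the altered Zeb2 enhancer. Without the filter on low counts, the last 2 were also 2 and 1, and H/H against WT cDC1 of experiment 2 gave 2 in place of 1. Both experiments in 1 fit, chosen after seeing the data, gave 2 in place of 1 for H/H against WT cDC1 of each experiment and for H/H hybrid cells against cDC1 of experiment 2. The cause was not tested. Of 631 values of named genes, 593 kept their call and direction, 35 calls were lost, 3 were gained and 0 reversed.

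Replicate numbers were not taken as pairs in the main fit. Deviations of same-numbered libraries correlated at 0.04 to 0.341 over 28 pairs of groups in experiment 1, all above 0. In experiment 2 they correlated at -0.205 to 0.231 over 15 pairs. Replicate number went with Xist in every group of experiment 1, and the main fit did not take out a difference shared by same-numbered libraries. With the replicate block, 0 in place of 1 gene passed between Nfil3-/- hybrid cells and cDC1 (Zbtb8a, adjusted p = 0.0597, edgeR), the Zbtb21 call between Nfil3-/- and Zeb2-altered hybrid cells was lost (0.0501), and counts elsewhere stayed within 1.5 times.

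Leaving out 1 library gave 7 to 13 calls for cDC1 against cDC2 in WT, 6 to 9 in H/+ and 5 to 8 in H/H mice. It gave 0 to 1 for H/+ against WT cDC1 and for H/H against WT cDC1 of experiment 1, and 1 to 3 for H/H against WT cDC1 of experiment 2. Hybrid cells against cDC1 gave 1 to 3 in H/+, 1 to 2 in H/H mice, 0 in experiment 2 and 0 to 1 in Nfil3-/- mice. Hybrid cells against cDC2 gave 2 to 5 in H/+ and 3 to 5 in H/H mice. The loss of Nfil3 gave 2 in cDC1 and 1 to 2 in hybrid cells, and Nfil3-/- against Zeb2-altered hybrid cells gave 1 to 2. With 2 libraries a group, a lone library was assumed to vary like the other groups.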
